A study of Homo sapiens with 6 samples.

Results

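The G1 cyclins, their kinases and the inhibitors of these kinases were followed in HCCLM3 cells that overexpressed the long noncoding RNA LINC00862. The members were taken by gene symbol from the deposited table, and each of the 10 was found, out of 35856 genes listed. They are the D-type cyclins CCND1, CCND2 and CCND3, the E-type cyclins CCNE1 and CCNE2, the kinases CDK4 and CDK6, and the inhibitors CDKN1A, CDKN2A and CDKN2B. HCCLM3 is an established human hepatocellular carcinoma line with a high metastatic potential. RNA was sequenced from 3 libraries of cells transfected with a vector carrying LINC00862 and from 3 libraries of the control group, named NC in the sample labels, which received an empty vector. Both groups are labelled as the same line. The sources used here do not say whether the sequenced cells were a clone or a pool. Nor do they say whether the 3 libraries of a group came from separate cultures. The p-values therefore measure the spread between these libraries only.

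A cell leaves G1 when mitogens raise the D-type cyclins, which bind CDK4 or CDK6 and start the phosphorylation of the retinoblastoma protein RB. RB then lets go of the E2F transcription factors, and these switch on CCNE1, CCNE2 and the genes of DNA synthesis, with cyclin E and CDK2 completing the step. INK4 inhibitors, which include the products of CDKN2A (p16) and CDKN2B (p15), bind CDK4 and CDK6, while CDKN1A (p21) binds cyclin-CDK complexes more widely. In liver cancer, gain of CCND1 and loss or silencing of CDKN2A are among the recurrent changes.

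All 10 members had enough counts to be kept, and the groups were compared on the counts by edgeR's quasi-likelihood test. The p-values were adjusted by the Benjamini-Hochberg method over the 20741 genes kept. At an adjusted p under 0.05, 2 members were higher in LINC00862 (CCND1 and CCNE1), 5 were lower (CCND3, CCNE2, CDK4, CDKN2A and CDKN2B) and 3 did not pass (CCND2, CDK6 and CDKN1A). These 7 of 10 members stand against a background of 64.2% of all genes tested, so the number called is near that of genes in general. By direction, 34.4% of all genes tested were higher and 29.8% were lower. The median log2 fold change, LINC00862 over NC, was -1.03 over the members and 0.11 over all genes tested. Each of the 7 members called differed at least 2-fold, as did 49.8% of all genes tested (28.9% higher and 20.9% lower). FPKM, a read count divided by the length of the transcript and the size of the library, did not overlap between the groups for the same 7 members, against 71.1% of all genes tested (34.4% higher and 36.6% lower).

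**Figure D1:**
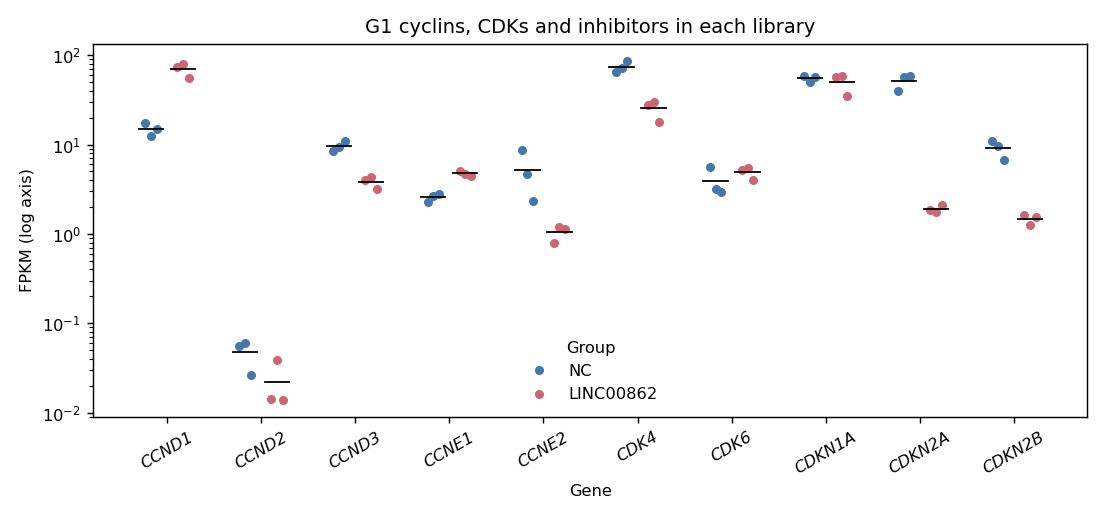
FPKM of the 10 members in each of the 6 libraries, on a log axis, with points for libraries and a bar for the mean of each group. CDKN2A fell from a mean of 51.9 to 1.91 FPKM, CCND1 rose from 15.0 to 70.1 FPKM, and CDKN1A, CDK6 and CCND2 overlap between the groups.

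The libraries held between 58241123 and 68229070 counts. LINC00862 itself had 11, 21 and 6 counts in the NC libraries and 145, 121 and 76 in the LINC00862 libraries, with a log2 fold change of 3.22 (standard error, SE, 0.53, adjusted p = 0.000583 by edgeR's quasi-likelihood test). It remained a rare transcript, at a mean of 0.449 ± 0.120 FPKM (SD, n = 3) in LINC00862. Across genes, Spearman's correlation of FPKM lay between 0.896 and 0.909 within groups and between 0.754 and 0.767 between them. Because each group has cells of its own, an effect of LINC00862 and a difference in origin of the cells cannot be told apart. The summed FPKM of 8 hepatocyte markers lay between 2.94 and 3.46 in NC and between 539 and 618 in LINC00862, where FGB made up most of it. ALB had a mean of 0.0078 FPKM in NC and 1.51 in LINC00862, and APOA1 and HNF4A were near 0 in both. SERPINA1 went the other way, from 1.29 to 0.095 FPKM, and of the 7 hepatocyte markers tested 6 were higher and 1 was lower. Of the 8 markers, 2 had a mean over 1 FPKM in NC and 3 in LINC00862. Of 7 mesenchymal markers, the summed FPKM lay between 529 and 621 in NC and between 15.3 and 19.4 in LINC00862, and that of 7 epithelial markers between 194 and 287 in NC and between 486 and 558 in LINC00862. VIM, which made up most of the mesenchymal sum in NC, went from a mean of 539 to 3.77 FPKM, and EPCAM from 0.547 to 160 FPKM. By edgeR's test, 3 of the 7 mesenchymal markers were lower and 2 were higher, the latter being COL1A1 (2.43 to 10.6 FPKM) and LUM (1.06 to 1.86 FPKM), and 6 of the 7 epithelial markers were higher, while KRT8 did not pass. Markers of immune cells (5 genes) summed to at most 2.32 FPKM in NC and 9.73 in LINC00862, and those of endothelium (4 genes) to at most 1.74 and 5.89. CD68 made up most of the immune sum in LINC00862 (mean 1.00 FPKM in NC and 6.81 in LINC00862). CDH5 made up most of the endothelial sum there (0.403 and 4.47 FPKM). Of the 4 genes tested in each of these lists, 1 was higher and 3 did not pass. The part of these differences in the results for the members was not tested. In bulk RNA, fewer cells of a kind and less RNA per cell cannot be told apart.

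CDKN2A and CDKN2B lie side by side on the minus strand of chromosome 9, and both fell. The letters at their starts are shown first, because the counts are per gene while CDKN2A has a pair of promoters. The upstream one starts the transcript of p14ARF, a protein with another reading frame than p16, and the downstream one starts that of p16, and the deposited counts do not separate them. The windows below reach from 250 bases before to 50 after each start, are read 5′ to 3′ on the minus strand, come from RefSeq on GRCh38.p14, and carry each CG dinucleotide in capitals.
CDKN2A, upstream start, chr9:21995275-21995574: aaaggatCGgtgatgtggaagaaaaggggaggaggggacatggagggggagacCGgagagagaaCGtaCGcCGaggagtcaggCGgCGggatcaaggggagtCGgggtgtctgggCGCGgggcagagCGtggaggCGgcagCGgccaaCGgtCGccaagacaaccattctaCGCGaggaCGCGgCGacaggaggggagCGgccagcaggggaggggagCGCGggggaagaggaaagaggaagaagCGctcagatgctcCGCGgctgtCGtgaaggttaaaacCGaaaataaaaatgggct
CDKN2A, downstream start, chr9:21974808-21975107: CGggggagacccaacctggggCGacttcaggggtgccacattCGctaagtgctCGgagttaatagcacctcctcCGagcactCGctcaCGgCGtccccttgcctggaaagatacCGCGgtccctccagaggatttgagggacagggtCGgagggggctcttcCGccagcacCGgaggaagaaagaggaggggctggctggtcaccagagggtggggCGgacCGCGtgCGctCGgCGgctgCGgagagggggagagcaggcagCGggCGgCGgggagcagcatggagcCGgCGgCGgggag
CDKN2B, chr9:22009256-22009555: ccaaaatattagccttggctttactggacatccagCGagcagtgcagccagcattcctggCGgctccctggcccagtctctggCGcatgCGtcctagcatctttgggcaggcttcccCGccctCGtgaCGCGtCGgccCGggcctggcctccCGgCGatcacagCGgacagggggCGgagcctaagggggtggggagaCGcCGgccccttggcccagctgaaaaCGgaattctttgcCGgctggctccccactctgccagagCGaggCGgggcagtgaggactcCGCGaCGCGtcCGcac

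The window at the upstream start of CDKN2A held 28 CG dinucleotides, that at the downstream start held 26, and that of CDKN2B held 25. Over 35116 RefSeq promoter windows of this length the median was 14, and 26.2%, 30.1% and 32.0% of them held at least as many as these 3. DNA methylation was not measured in these samples. The E2F motif forms TTTCGCGC and TTTGGCGC, which differ in a single letter and so cannot match at the same place, were searched on both strands. Neither was found in the 11 windows of the 7 members matched in the RefSeq table, and 1.15% of all windows held at least 1 of them. CCND1, CCND2 and CCNE2 were not matched, and other forms of the E2F motif were not searched.

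Of the INK4 genes, CDKN2A (ENSG00000147889, chr9:21967753-21994873 in the coordinates of the table) changed most of the 10 members. In NC its FPKM was 39.8, 57.6 and 58.4, and in LINC00862 it was 1.87, 1.75 and 2.12. The groups were far apart, and the LINC00862 mean was 3.69% of the NC mean. The mean was 51.9 ± 10.6 FPKM (SD, n = 3) in NC and 1.91 ± 0.192 FPKM (SD, n = 3) in LINC00862. The counts gave a log2 fold change of -4.58 (SE 0.25, adjusted p = 7.2e-07 by edgeR's quasi-likelihood test), or 23.9-fold lower. CDKN2A was among the abundant transcripts of NC, above 96.4% of the genes tested by mean FPKM, and above 54.2% of them in LINC00862. Its log2 fold change lay at percentile 3.1 of all genes tested.

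CDKN2B (ENSG00000147883, chr9:22002903-22009305) had 10.9, 9.52 and 6.73 FPKM in NC and 1.64, 1.24 and 1.54 FPKM in LINC00862. Every NC library was above every LINC00862 library, and the fall was smaller than that of its neighbour. It fell with a log2 fold change of -2.43 (SE 0.21, adjusted p = 1.18e-05 by edgeR's quasi-likelihood test). The 95% interval ran from -2.90 to -1.95 for CDKN2B and from -5.15 to -4.01 for CDKN2A, so the intervals did not overlap. The ratio of CDKN2A to CDKN2B FPKM was 3.65, 6.05 and 8.68 in the NC libraries. In the LINC00862 libraries this ratio was 1.14, 1.41 and 1.38. CDKN2B made up 15.3% ± 5.67 (SD, n = 3) of the summed CDKN2A and CDKN2B FPKM in NC and 43.4% ± 2.87 (SD, n = 3) in LINC00862.

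At this locus the antisense RNA CDKN2B-AS1 overlaps 6403 bases of CDKN2B and 735 bases of CDKN2A on the plus strand. It had 652, 507 and 460 counts in NC and 145, 137 and 135 in LINC00862, a log2 fold change of -1.85. Library preparation marked the strand, but whether counting made use of it is not stated, so reads of CDKN2B and of its antisense partner may be mixed. CDKN2B had 2884, 2488 and 1799 counts in NC and 501, 329 and 413 in LINC00862, more than CDKN2B-AS1 in each library. The tested protein-coding genes that flank the pair moved in opposite directions. MTAP, which salvages methionine, fell with a log2 fold change of -0.81 (adjusted p = 0.00186 by edgeR's quasi-likelihood test), and DMRTA1 rose with 0.94 (adjusted p = 0.00451 by the same test).

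CDKN1A (ENSG00000124762, chr6:36676460-36687337), which encodes p21, did not pass the test between the groups. Its FPKM was 59.2, 50.4 and 57.0 in NC and 57.0, 59.1 and 34.5 in LINC00862. The groups overlap, and the lowest value is that of LINC00862 replicate 3. The counts gave a log2 fold change of 0.02 (SE 0.18, adjusted p = 0.945 by edgeR's quasi-likelihood test), with a 95% interval from -0.40 to 0.43, which is 0.758 to 1.35 times the NC level. At 55.5 ± 4.55 FPKM (SD, n = 3) in NC and 50.2 ± 13.6 FPKM (SD, n = 3) in LINC00862, CDKN1A was above 96.6% and 97.1% of all genes tested. Its flanking genes SRSF3 and CPNE5 had log2 fold changes of -0.94 and -3.87 (adjusted p = 0.000645 and 0.00321 by edgeR's quasi-likelihood test), the latter on at most 13 counts in a LINC00862 library.

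LINC00862 replicate 3 was the lowest of its group in FPKM for 7 of the 10 members. Its 10 most abundant genes took 29.2% of all counts, against 20.2% and 19.4% in the other LINC00862 libraries and 8.42% to 11.7% in NC, and the leading gene was the mitochondrial MT-CO1 in each library. FPKM divides by the whole library and the tested log2 fold changes by TMM-scaled library sizes, so these scales can differ by the TMM factors. These factors were 0.957, 0.989 and 0.891 in the LINC00862 libraries and 1.13, 1.03 and 1.02 in NC. Without LINC00862 replicate 3, the log2 fold change of CDKN1A was 0.19 and that of CDK4 was -1.23.

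The D-type cyclins, which pair with CDK4 and CDK6, parted ways. CCND1 (ENSG00000110092, chr11:69641156-69654474) had 17.3, 12.5 and 15.1 FPKM in NC and 74.1, 80.5 and 55.8 FPKM in LINC00862. Each LINC00862 library was above each NC library, and the lowest of them was more than 3 times the highest NC value. The mean rose from 15.0 ± 2.40 to 70.1 ± 12.8 FPKM (SD, n = 3 per group), with a log2 fold change of 2.40 (SE 0.17, adjusted p = 3.05e-06 by edgeR's quasi-likelihood test). CCND1 moved from above 87.0% of all genes tested in NC to above 97.9% of them in LINC00862.

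CCND3 (ENSG00000112576, chr6:41934934-42050357), the D-type cyclin best known from blood cells, went the other way. It had 8.45, 9.36 and 10.8 FPKM in NC against 3.98, 4.33 and 3.18 FPKM in LINC00862, without overlap. It fell with a log2 fold change of -1.16 (SE 0.17, adjusted p = 0.000332 by edgeR's quasi-likelihood test). CCND2 (ENSG00000118971, chr12:4269771-4305350) was close to silent in both groups, with 31, 32 and 14 counts in NC and 9, 21 and 8 counts in LINC00862. These counts overlap between the groups, and the log2 fold change of -0.91 (SE 0.62, adjusted p = 0.227) had a 95% interval from -2.31 to 0.50, so a difference was not detectable at this depth.

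Summed over the 3 genes, D-type cyclin FPKM was 24.6 ± 2.27 in NC and 74.0 ± 13.4 in LINC00862 (SD, n = 3 per group). CCND1 supplied 60.8% ± 5.49 (SD, n = 3) of this sum in NC and 94.8% ± 0.164 (SD, n = 3) in LINC00862. The shares, shown in the plot of the make-up of each family, are a description without a test. The ratio of CCND1 to CCND3 FPKM went from a mean of 1.60 ± 0.397 to 18.2 ± 0.611 (SD, n = 3 per group).

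CCND1 has MYEOV and LTO1 as its nearest tested protein-coding neighbours on chromosome 11, a region often gained in liver cancer. MYEOV rose from a mean of 0.176 to 5.16 FPKM (log2 fold change 4.96, adjusted p = 1.06e-06 by edgeR's quasi-likelihood test), and LTO1 rose from 2.18 to 4.22 FPKM (log2 fold change 1.13, adjusted p = 0.000132 by the same test). LTO1 is on the opposite strand and shares 1399 bases with CCND1, which had between 3901 and 26945 counts against 1090 to 2529 for LTO1. PARP11 and TIGAR, which flank CCND2, fell with log2 fold changes of -0.98 and -0.52 (adjusted p = 0.0061 and 0.0103 by the same test). The neighbours of CCND3, BYSL and TAF8, both fell, with log2 fold changes of -0.99 and -0.58 (adjusted p = 0.00108 and 0.00974 by edgeR's quasi-likelihood test). DNA copy number was not measured in these samples.

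CDK4 and CDK6 are the kinases that the D-type cyclins activate. CDK4 (ENSG00000135446, chr12:57747727-57756013) was the most abundant member in NC, with 64.4, 71.6 and 86.2 FPKM, and had 28.0, 30.1 and 17.8 FPKM in LINC00862. No LINC00862 library reached the lowest NC library. The counts gave a log2 fold change of -1.40 (SE 0.21, adjusted p = 0.000354 by edgeR's quasi-likelihood test). TSPAN31 and MARCHF9 overlap CDK4 on the other strand by 2485 and 911 bases, with at most 1916 and 1712 counts in a library against at least 3706 for CDK4. Their log2 fold changes were 0.82 and -0.78, and both passed (adjusted p = 0.000741 and 0.0169 by edgeR's quasi-likelihood test).

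CDK6 (ENSG00000105810, chr7:92604921-92836573) had 5.64, 3.21 and 2.96 FPKM in NC and 5.15, 5.52 and 4.04 FPKM in LINC00862. NC replicate 1 lies above the LINC00862 libraries and the other NC libraries below them, so the groups overlap. The counts gave a log2 fold change of 0.50 (SE 0.21, adjusted p = 0.0648 by edgeR's quasi-likelihood test, unadjusted p = 0.0431). Whether CDK6 passed depended on the libraries and on the method. Without NC replicate 1, the log2 fold change was 0.79 (adjusted p = 0.00088 by edgeR's quasi-likelihood test). DESeq2 and upper quartile scaling also put CDK6 past the threshold (adjusted p = 0.031 and 0.0117). Of its flanking genes, FAM133B had a log2 fold change of -0.11 (adjusted p = 0.577 by edgeR's test) and SAMD9 fell with -1.72 (adjusted p = 0.000338 by the same test). CDK4 made up 94.8% ± 2.50 of the summed FPKM of this kinase pair in NC and 83.5% ± 1.69 in LINC00862 (SD, n = 3 per group). By counts, which are not divided by length, these shares were 82.4% and 56.2%.

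Set beside each other, the members of the cyclin D step shifted in proportion. For each unit of CDK4 and CDK6 FPKM there were 0.369, 0.293 and 0.291 units of D-type cyclin FPKM in NC and 2.36, 2.39 and 2.70 in LINC00862. Likewise there were 0.723, 0.896 and 0.731 units of summed CDKN2A and CDKN2B FPKM in NC and 0.106, 0.084 and 0.167 in LINC00862. In these libraries, D-type cyclin transcripts went from fewer than the kinase transcripts to more. Those of CDKN2A and CDKN2B together went from near the kinase level to well under it. The other INK4 genes, CDKN2C (27.7 FPKM in NC and 3.60 in LINC00862) and CDKN2D (10.3 and 8.48), are not in this sum. These ratios were chosen after the values were seen, and they describe RNA, not protein.

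CCNE1 and CCNE2 encode the E-type cyclins, partners of CDK2, and they also moved in opposite directions. CCNE1 (ENSG00000105173, chr19:29811991-29824312) had 2.25, 2.67 and 2.80 FPKM in NC and 5.04, 4.71 and 4.46 FPKM in LINC00862. Without overlap between the groups, it rose with a log2 fold change of 1.04 (SE 0.20, adjusted p = 0.00147 by edgeR's quasi-likelihood test). Its neighbours C19orf12 and URI1 rose as well, with log2 fold changes of 0.60 and 0.75 (adjusted p = 0.00629 and 0.000677 by edgeR's quasi-likelihood test).

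CCNE2 (ENSG00000175305, chr8:94879770-94896678) had 8.62, 4.72 and 2.31 FPKM in NC and 0.797, 1.18 and 1.13 FPKM in LINC00862. The NC libraries spread widely, with an SD of 3.19 around a mean of 5.21 FPKM, and still lay above every LINC00862 library. The counts gave a log2 fold change of -2.11 (SE 0.40, adjusted p = 0.00144 by edgeR's quasi-likelihood test), and without NC replicate 1 it was -1.61 (adjusted p = 0.00294 by the same test). INTS8 and NDUFAF6, on the other strand, share 1977 and 912 bases with CCNE2 and had log2 fold changes of -0.02 and 0.42 (adjusted p = 0.922 and 0.039). INTS8 had 3363 to 4664 counts in the 6 libraries, against 271 to 2512 for CCNE2. The sum of the E-type cyclins was 10.9, 7.39 and 5.11 FPKM in NC and 5.84, 5.90 and 5.59 FPKM in LINC00862, and these ranges overlap. CCNE2 supplied 62.7% ± 17.1 of this sum in NC and 18.0% ± 3.77 in LINC00862 (SD, n = 3 per group), and by counts 74.2% and 28.2%.

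**Figure D2:**
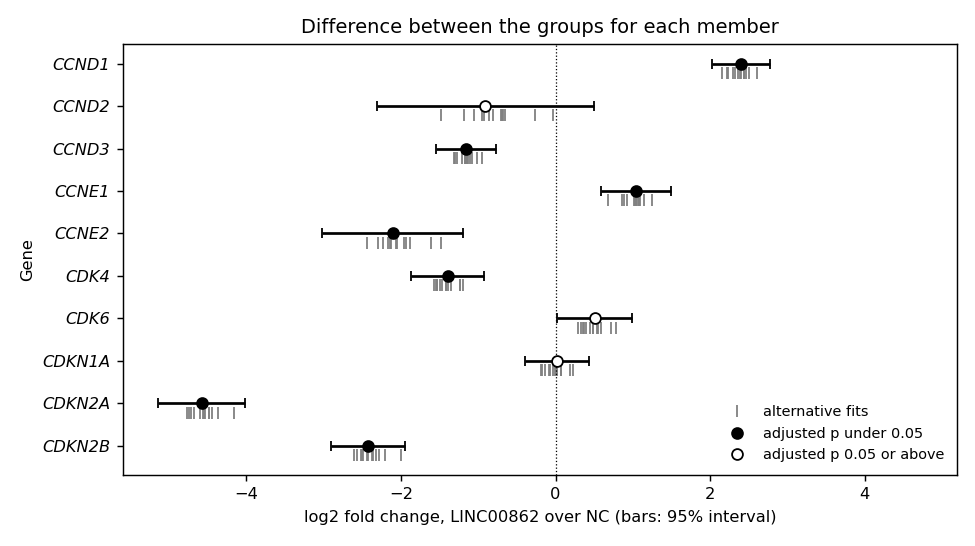
Log2 fold change of each member, LINC00862 over NC, with its 95% interval and with grey ticks for the alternative fits. CDKN2A (-4.58) and CDKN2B (-2.43) lie on the far left, CCND1 (2.40) on the right, and the ticks of CDKN1A fall on both sides of 0.

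By mean FPKM, which is per length, the order in NC was CDK4, CDKN1A, CDKN2A, CCND1, CCND3, CDKN2B, CCNE2, CDK6, CCNE1 and CCND2. Neighbours in this order whose ranges over the 3 libraries overlapped were CDKN1A and CDKN2A, CCND3 and CDKN2B, CDKN2B and CCNE2, and CCNE2 and CDK6. In LINC00862 the order was CCND1, CDKN1A, CDK4, CDK6, CCNE1, CCND3, CDKN2A, CDKN2B, CCNE2 and CCND2. There CCND1 overlapped with CDKN1A, and CDK6 with CCNE1. CCND1 passed from rank 4 to rank 1, while CDKN2A passed from rank 3 to rank 7 and CDK4 from rank 1 to rank 3.

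Beyond the members, 64 other genes of the pathway were listed by role, and all were tested. Of these, 14 were higher, 36 were lower and 14 did not pass, that is 50 of 64 called against 64.2% of all genes tested. The median log2 fold change of the 64 genes was -0.68. By direction, 34.4% of all genes tested were higher and 29.8% were lower, which is the background for each list that follows. In the KEGG cell cycle pathway as the table assigns it, 111 genes that are not members were tested, of which 4 were higher and 81 were lower, with a median of -1.13. The 4 higher ones were GADD45G, E2F5, CDC14B and E2F4, named after their values were seen.

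**Figure D3:**
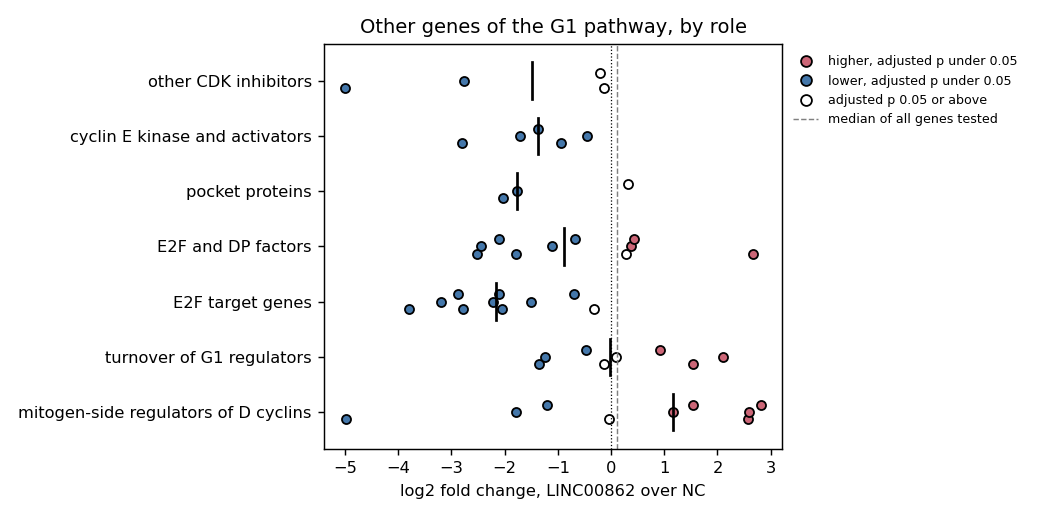
Log2 fold change, LINC00862 over NC, of other genes of the G1 pathway grouped by role in 7 lists, with filled points for genes past an adjusted p of 0.05 and a bar for each list's median. The E2F target genes lie to the left, with a median of -2.16, and the mitogen-side regulators of the D cyclins are spread from -4.98 to 2.82. The leftmost inhibitor is CDKN1C, which had 0 counts in 2 libraries, so that its place is not a measured fold.

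Among the other CDK inhibitors, 2 of 4 were lower. CDKN2C, the INK4 gene of p18, fell from 27.7 ± 3.24 to 3.60 ± 0.319 FPKM (SD, n = 3 per group), with a log2 fold change of -2.77 (adjusted p = 1.03e-06 by edgeR's quasi-likelihood test). CDKN1C (p57) had 24, 33 and 53 counts in NC and 3, 0 and 0 counts in LINC00862, and passed (adjusted p = 0.00185 by the same test). CDKN1B (p27), a CIP/KIP inhibitor like CDKN1A, had 19.9 FPKM in NC and 15.2 in LINC00862 and a log2 fold change of -0.20 (adjusted p = 0.268). For CDKN2D (p19) the log2 fold change was -0.12 (adjusted p = 0.655). The 2 INK4 members and CDKN2C were lower, while the fourth INK4 gene, CDKN2D, did not pass.

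CDK2, the partner of the E-type cyclins, and its activators were lower throughout, 5 of 5, against 29.8% of all genes tested. CDK2 fell from 31.0 ± 5.82 to 3.94 ± 0.775 FPKM (SD, n = 3 per group), a log2 fold change of -2.79 (adjusted p = 2.33e-06 by edgeR's quasi-likelihood test). The phosphatase CDC25A, which activates CDK2, had a log2 fold change of -1.71. CDK7, CCNH and MNAT1, which form the CDK-activating kinase, had -1.37, -0.95 and -0.46, and for MNAT1 the call (adjusted p = 0.031) was lost in 8 of the 15 alternatives, among them the fits without NC replicate 2 and without each LINC00862 replicate (-0.48 to -0.33).

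Of the pocket proteins that hold the E2F factors, RB1 and RBL1 fell, with log2 fold changes of -1.77 and -2.04 (adjusted p = 0.000156 and 4.7e-05 by edgeR's quasi-likelihood test), and RBL2 had 0.32 (adjusted p = 0.28). Without NC replicate 1, RBL2 passed as higher, with 0.62 (adjusted p = 0.0142 by the same test). Among 10 E2F and DP factors, 6 were lower and 3 were higher. The activator E2F1 fell from 34.6 to 8.95 FPKM (log2 fold change -1.79) and its partner TFDP1 from 65.0 to 10.6 FPKM (-2.43). The repressor E2F7 fell from 9.81 to 1.49 FPKM (-2.52), while E2F5 rose from 0.255 to 1.44 FPKM (2.67). The rises of E2F4 (0.44) and E2F6 (0.38) were near the threshold, with adjusted p = 0.0264 and 0.044, and were lost in 11 and 12 of the 15 alternatives, including for both genes those without NC replicate 2 and without each LINC00862 replicate, and for E2F6 that without NC replicate 3. Without NC replicate 2, or without any of the LINC00862 replicates, 1 of the 10 factors was higher.

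E2F target genes, which report on entry into S phase, were lower for 9 of 10 and higher for 0, against 29.8% and 34.4% of all genes tested. PCNA, the sliding clamp of DNA polymerase, fell from 237 ± 15.7 to 45.4 ± 1.96 FPKM (SD, n = 3 per group), a log2 fold change of -2.22. MYBL2 (-3.80), TYMS (-3.20), CCNA2 (-2.87) and TK1 (-2.78) showed the larger falls, and CDC6, a licensing factor, had -0.32 and did not pass (adjusted p = 0.0611), except without NC replicate 1 and in 3 other alternatives. The 6 proliferation markers MKI67, TOP2A, BIRC5, CCNB1, AURKA and BUB1 were lower as well, with summed FPKM between 349 and 406 in NC and between 64.1 and 81.0 in LINC00862. The CCND1 and CCNE1 transcripts were thus higher in the libraries in which these genes were lower. Whether the share of cells in each phase differed was not measured.

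The genes that turn over G1 regulators were split, with 3 higher and 3 lower of 8. SKP2, which marks p27 for degradation, fell with a log2 fold change of -1.35, and its cofactor CKS1B rose with 0.91 (adjusted p = 7.9e-05 and 0.00239 by edgeR's quasi-likelihood test). FBXO4 and FBXO31, F-box proteins described as ligase subunits for cyclin D1, rose with 2.11 and 1.55. AMBRA1, of the same list, had 0.10 and did not pass (adjusted p = 0.596 by edgeR's quasi-likelihood test). The shared ligase subunits SKP1 and CUL1 fell with -1.24 and -0.46. The call of CUL1 was lost without LINC00862 replicate 1 or 3.

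Of 9 genes listed for mitogen signals ahead of the D-type cyclins, 5 were higher and 3 were lower. The list does not separate genes that pass the signal on from genes that curb it. Higher were FOS (log2 fold change 2.82), ETV4 (2.59), SPRY4 (2.57), DUSP6 (1.54) and ETV5 (1.16). Lower were FOSL1 (-4.98), JUN (-1.78) and MYC (-1.21), of which MYC fell from 110 ± 5.67 to 41.9 ± 1.00 FPKM (SD, n = 3 per group). EGR1 had a log2 fold change of -0.04 and did not pass (adjusted p = 0.86 by edgeR's quasi-likelihood test). By the Euclidean distance of centred log2(FPKM + 0.1) over the 6 libraries, the 2 of these 64 genes nearest to CCND1 were ETV4 (0.38) and SPRY4 (0.46), and the 2 nearest to CDKN2A were FOSL1 (0.95) and MYBL2 (1.17). Nearest to CCNE1 were CKS1B (0.36) and FBXO31 (0.67), to CCND3 SKP1 (0.21) and CCNH (0.35), to CCNE2 RB1 (0.69) and E2F8 (0.74), and to CDKN1A AMBRA1 (0.28) and E2F2 (0.39). CDKN1B (0.42) was the nearest to CCND2. The second nearest was SKP1 (0.44) for CDK4, RBL2 (0.43) for CDK6 and TFDP1 (0.59) for CDKN2B. The distance mostly follows the difference between the groups, which all 6 libraries share.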

How the data were processed

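Poly(A)-selected RNA libraries came from HCCLM3 cells, 3 with the LINC00862 vector and 3 of the NC group. The authors deposited raw counts for each gene and the FPKM derived for it. Per the labels, cutadapt 1.9, HISAT2 2.0.4 on hg38, UMI-tools, StringTie 1.3.4d, DESeq2 and edgeR were named. Whether molecular identifiers were collapsed, and the annotation release, are not given in the sources used here. Gene coordinates are those of the deposited table, and 2 of the 10 members have the same start and end in GENCODE 29.

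Counts were tested with edgeR 4.0.16 in R 4.3.3 (filterByExpr, TMM, quasi-likelihood test, false discovery rate of 0.05 over all genes). Standard errors and 95% intervals were derived from the test statistic. With 3 libraries against 3, the smallest p of an exact permutation test (two-sided, on FPKM) is 0.1. It gave 0.1 for the 7 members without overlap, 0.2 for CCND2, 0.4 for CDK6 and 0.6 for CDKN1A. Shares and ratios of FPKM were not tested. Named are the members, LINC00862, genes of the pathway and marker lists, the nearest tested protein-coding gene on each side of each member, and for each member the 2 pathway genes nearest in profile. Some genes and a list of the pathway are not reported here. The members and lists were chosen with earlier results of these data known. Every pair of libraries differed by more than sampling noise, so none was merged. Libraries that share a replicate number did not deviate together. On simulated counts for this comparison with 200 changed genes among 20020, edgeR recovered 28% of the 2-fold and 56% of the 4-fold changes, with 5 false calls. Those counts held a far smaller share of changed genes than the 64.2% called in the data. The adjustment of p-values is stricter in such a setting, so the recovered shares do not give the power of the real comparison. Alternatives used DESeq2 1.42.0, limma 3.58.1, other scalings, filters and thresholds, and fits without each library. Tables were written in Python 3.11.15.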

Additional observations from a re-analysis of the deposited data

How the results depend on the processing

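The ratio of CDKN2A and CDKN2B to kinase FPKM, the KEGG list and the genes on the opposite strand were chosen after seeing the data. The 5 members that fell and CCND1 and CCNE1 kept their direction in the 15 alternatives, and their calls held in all of them except that a test against a fold change of 2 lost CCND3 (-1.16, adjusted p = 0.154) and CCNE1 (1.04, adjusted p = 0.371). That test also gave 8010 genes called, 3204 of them lower, 1 member higher and 9 pathway genes higher, because it asks for more. Without 1 library in turn, the log2 fold changes ranged from -4.77 to -4.45 for CDKN2A, -2.57 to -2.29 for CDKN2B, 2.30 to 2.50 for CCND1, -2.44 to -1.61 for CCNE2, and 0.37 to 0.79 for CDK6. CDK6 passed with DESeq2 (0.55), with upper quartile scaling (0.72) and without NC replicate 1. CDKN1A, near 0, turned negative with library size only (-0.14), with limma-trend on log2(FPKM + 1) (-0.18) and on log2(FPKM + 0.1) (-0.18), and lay between -0.0803 and 0.19 without 1 library, never past the threshold. CDKN1B and CDKN2D turned positive with upper quartile scaling (0.0165 and 0.0838), and CDKN2D lay between -0.32 and 0.11 without 1 library. Among the E2F and DP factors, 1 rather than 3 was higher in 11 alternatives. The cause was not tested.

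Same-numbered libraries did not deviate together, so the numbers give no pairing (correlation of deviations -0.05, -0.03 and -0.01). With a replicate block, 12098 genes and the same number of members, 7, were called, and CDKN1A was -0.0071. The median log2 fold change of all genes was 0.11 with TMM, 0.32 after upper quartile scaling and -0.05 by library size only. CCND2 is limited by depth, with at most 32 counts in a library.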
